A study of Homo sapiens with 4 samples.

Results

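Of the 20372 genes in the deposited count table, 251 are protein-coding genes on human chromosome 19 whose symbol is ZNF followed by a number, with at most one letter after it, and these are the genes described here. They carry 246 symbols, because 5 symbols are listed under 2 gene identifiers each. Their RNA was counted in TPC1 cells, an established papillary thyroid carcinoma line driven by a CCDC6-RET fusion, after 6 h or 24 h with BLU6864, a selective inhibitor of the RET kinase, with 2 libraries per time. The dose is given as 100 micromolar in the labels and as 100 nanomolar in the methods of the study, and both times share the line, the medium and the drug. The 24 h libraries are labelled as re-analysed. No untreated or vehicle library was analysed here, so effects of the drug and of longer culture cannot be told apart. The labels do not say whether the libraries of one time came from separate cultures, so the P values measure the spread between libraries, which may be technical.

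Numbered ZNF genes mostly encode proteins with arrays of zinc fingers, each finger a short fold held by a zinc ion that reads a few bases of DNA. Many of these proteins also carry a KRAB domain, which binds the corepressor TRIM28. TRIM28 in turn brings in the histone methyltransferase SETDB1 and heterochromatin proteins, so that the bound site is silenced, often at a retrotransposon. On chromosome 19 the genes lie in tandem clusters that arose by repeated duplication, and neighbours can be very alike in sequence.

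The 4 libraries held between 23917056 and 27457040 counts. Spearman correlations over genes were at least 0.998 between libraries of one time and at most 0.941 between times. The gene of the thyroid lineage factor PAX8 had 20035 and 21660 counts at 24 h and 19124 and 22978 counts at 6 h, whereas those of NKX2-1 and TSHR had none in any library. FOXE1 was higher at 24 h (log2 fold change 0.84) and the thyroglobulin gene TG lower (−1.09). Of 6 epithelial markers, KRT8 and KRT18 had at least 863 normalized counts in each library, and EPCAM and CDH1 at most 11 counts. Among these 6, KRT7 (0.84) and KRT18 (0.37) were higher at 24 h, KRT19 was lower (−1.59) and KRT8 was not called (−0.048). Of the 6 markers of white blood cells listed, none had more than 5 counts in a library, and their summed normalized counts were 1.95 to 6.97 at 24 h and 3.24 to 6.72 at 6 h. Of the 4 fibroblast or mesenchymal markers, COL3A1 had no count and DCN at most 1, VIM was abundant at both times, and COL1A1 was lower at 24 h (log2 fold change −1.57). The summed level of those 4 ran from 49699.9 to 55231.4 at 24 h and from 53841.8 to 57628.8 at 6 h, and its part in the results was not tested. In bulk RNA, fewer cells that express a gene and less RNA per cell cannot be told apart.

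Among the numbered ZNF genes of chromosome 19, far more rose than fell between 6 h and 24 h, mostly by small amounts. Of the 251 genes, 163 passed the filter on low counts. In the quasi-likelihood test of edgeR, adjusted by the Benjamini-Hochberg method over all 12876 genes tested, 68 of the 163 were higher at 24 h at an adjusted P under 0.05 (41.7%) and 9 were lower (5.52%). Over all genes tested the same rule called 33.0% higher and 32.6% lower. The remaining 86 did not pass. Under DESeq2 the calls were 42 higher and 3 lower, each of them also called by edgeR, beside 27.8% higher and 28.0% lower over all genes. The share higher was thus slightly below that of all genes under DESeq2, and the share lower far below it. When single libraries were left out, the share higher exceeded that of all genes only without 24 h replicate 2. The share lower was below that of all genes in each of those runs.

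The median log2 fold change of the 163 genes was 0.27, against 0.0029 for all genes tested. The middle of their range ran from 0.059 to 0.52 and the extremes were −1.41 and 1.70. A total of 131 had a value above 0 and 32 a value below 0. With cutoffs of the size given in the study's methods, applied in both directions (a log2 fold change past 0.5, with P under 0.01 before adjustment), 34 were higher and 4 lower, where all genes gave 17.4% and 17.7%. Both 24 h libraries exceeded both 6 h libraries for 103 genes (63.2%) and fell under both for 15 (9.20%), where all genes gave 41.0% and 40.8%. These are counts of the genes that passed the filter, not of all 251.

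**Figure D1:**
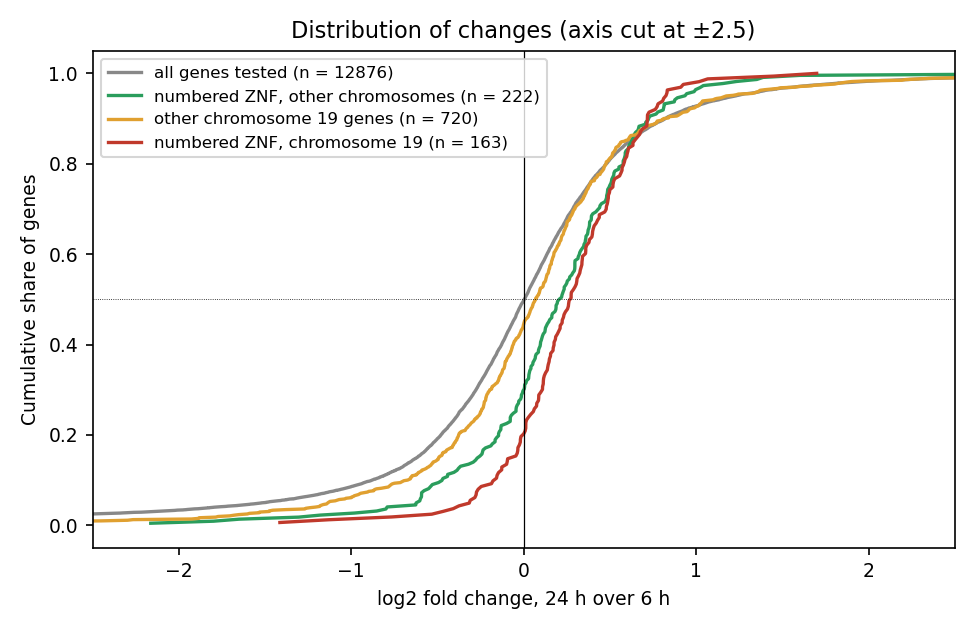
Cumulative share of genes (vertical axis) at or below each log2 fold change of 24 h over 6 h (horizontal axis, tails not shown), for all genes tested and 3 sets of genes. The curve of the 163 chromosome 19 numbered ZNF genes reaches the dotted median line at 0.27 and that of all 12876 genes tested at 0.0029.

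Summed over all 251 genes, the normalized counts were 46819.6 and 44434.5 at 24 h and 36746.7 and 36531.6 at 6 h. This was 0.177% and 0.166% of each library's counts at 24 h and 0.142% in both libraries at 6 h, so the libraries of the 2 times did not overlap. The genes were lowly expressed, with a median normalized count of 169 among those tested, against 795 for all genes tested. Their median standard error was larger, at 0.138 against 0.086 on the log2 scale.

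The 88 genes that were not tested comprised 40 with no count in any library and 48 with few. Of the 88, 68 had at most 3 counts in every library, and the highest count of any was 15, for ZNF790 in 24 h replicate 2. The untested genes include ZNF93, which silences young LINE elements, with a single count in all 4 libraries, and ZNF331, known from rearrangements in thyroid adenomas, with none. At this depth they were too low to compare.

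Other sets of genes were described in the same way. The 264 numbered ZNF genes on other chromosomes had 222 members tested, of which 95 were higher (42.8%) and 36 lower (16.2%), with a median log2 fold change of 0.21. The 1230 other protein-coding genes of chromosome 19 had 720 tested, of which 257 were higher (35.7%) and 177 lower (24.6%), with a median of 0.070. Of 18 chromosome 19 genes with an unnumbered zinc finger prefix (ZFP, ZSCAN, ZIM, ZKSCAN or ZBTB), 7 were tested and 3 were higher, with a median of 0.35. No test between these sets was made.

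The gene with the largest rise was ZNF114, with normalized counts of 1015 and 973 at 24 h and 296 and 316 at 6 h. Its level was thus 3.25-fold higher at 24 h, with a log2 fold change of 1.70 (SE 0.091, adjusted P = 4.62e-15). ZNF114 lies at chr19:48675575-48790865 (hg19) and overlaps CARD8, an inflammasome gene whose log2 fold change was −0.75, and C19orf68, at 0.13. Reads of overlapping genes can be counted for either gene where strand is not used, and whether strand was used in counting is not given in the sources used here.

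ZNF749 had 89.7 and 116 normalized counts at 24 h and 35.6 and 39.3 at 6 h, which gave a log2 fold change of 1.45 (SE 0.21, adjusted P = 1.25e-06). ZNF526 had 518 and 492 at 24 h and 230 and 251 at 6 h, with a log2 fold change of 1.07 (SE 0.10, adjusted P = 9.43e-10). In both genes the libraries of the 2 times were well apart. ZNF30 had 135 and 76.9 normalized counts at 24 h and 46.4 and 57.6 at 6 h, with a log2 fold change of 1.02 (SE 0.23, adjusted P = 3.74e-04). Here 24 h replicate 1 stood well above the rest, and without it the value was 0.56 (adjusted P = 0.055).

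ZNF285 had 174 and 147 normalized counts at 24 h against 83.1 and 87.3 at 6 h, with a log2 fold change of 0.91. For this gene 14.1% of all 50-base windows of its transcript also occur in transcripts of other genes, so its counts are less certain. ZNF112 had 241 and 173 normalized counts at 24 h against 136 and 97.9 at 6 h, with a log2 fold change of 0.83. ZNF583 had 122 and 82.7 at 24 h against 65.9 and 49.9 at 6 h, also 0.83. The times did not overlap in any of these 3 genes, but without 24 h replicate 1 ZNF583 was at 0.53 (adjusted P = 0.063).

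The other 3 of the 10 largest rises were in abundant genes. ZNF146, which encodes a protein made almost entirely of zinc fingers without a KRAB domain, had the highest normalized counts of all 251 genes, with 2457 and 2043 at 24 h compared with 1385 and 1192 in the 6 h libraries. This gave a log2 fold change of 0.81 (SE 0.085, adjusted P = 4.72e-09). ZNF358 had 1434 and 1577 at 24 h and 863 and 853 at 6 h, also 0.81 (SE 0.077, adjusted P = 5.65e-10). ZNF317 had 1124 and 1099 at 24 h and 659 and 637 at 6 h, with a log2 fold change of 0.78.

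Of the 5 genes with the highest normalized counts, 4 were higher at 24 h. Besides ZNF146 and ZNF358 these were ZNF581, with 1256 and 1326 normalized counts at 24 h and 799 and 821 at 6 h (log2 fold change 0.67, adjusted P = 2.03e-08), and ZNF627, with 1141 and 1178 against 941 and 996 (0.26, adjusted P = 0.0043). The exception was ZNF260, with 1160 and 1043 at 24 h and 1023 and 980 at 6 h (0.14, adjusted P = 0.13). The value of ZNF260 was 0.22 (adjusted P = 0.043) without 24 h replicate 2 and 0.062 (adjusted P = 0.59) without 24 h replicate 1. ZNF581 shares its position with ZNF580 (0.77) and CCDC106 (0.34), so reads of these 3 genes may be mixed. Per kilobase of transcript, the highest mean levels over the 4 libraries were those of ZNF581 (878 normalized counts per kilobase), ZNF580 (662), ZNF358 (600), ZNF146 (529) and ZNF428 (406).

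**Figure D2:**
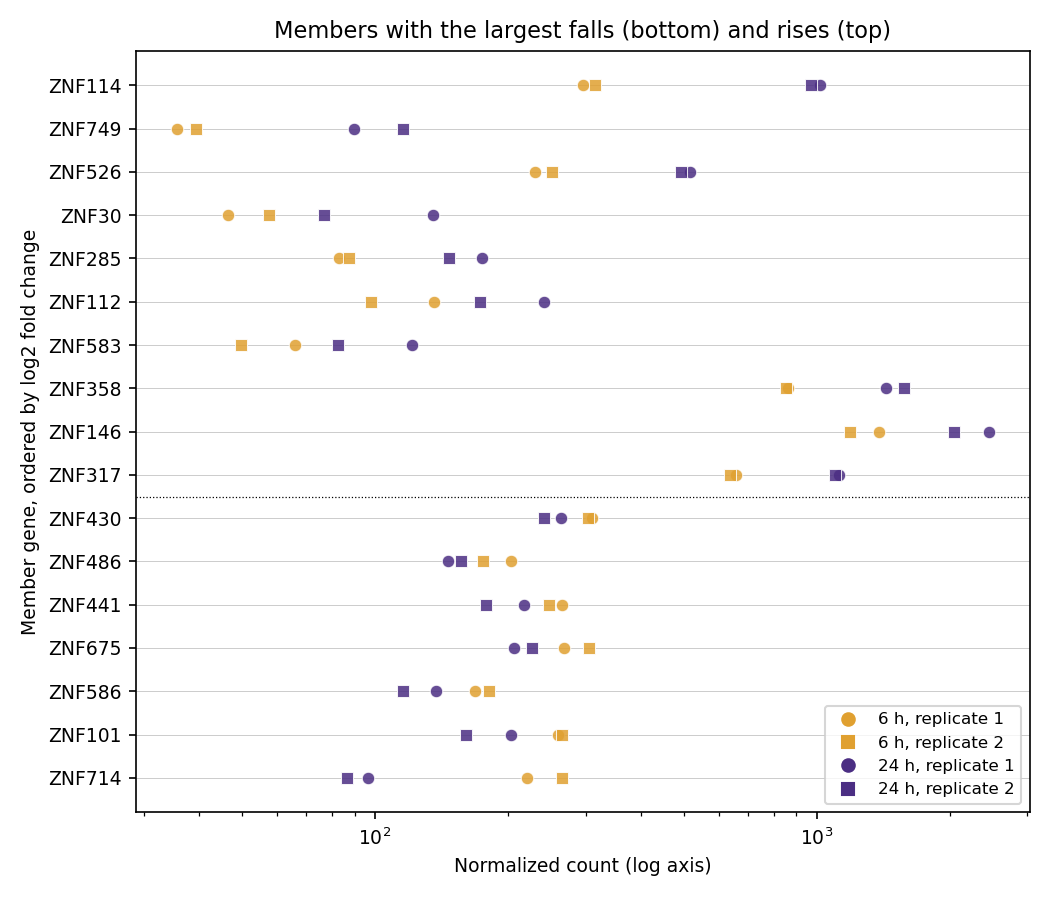
Normalized counts (horizontal log axis) in each of the 4 libraries for the 10 genes with the largest rise (top) and the 7 with a fall (bottom) that passed the test, had a mean of at least 50 normalized counts and had no overlap between times. The points of 24 h lie to the right of those of 6 h in the top 10 rows and to the left in the bottom 7.

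A total of 7 genes with a mean of at least 50 normalized counts were called lower with no overlap between times. ZNF714 fell most, from 221 and 266 normalized counts at 6 h to 96.6 and 86.6 in the 24 h libraries, a log2 fold change of −1.41 (SE 0.15, adjusted P = 3.50e-09). ZNF101 had 203 and 161 at 24 h and 260 and 266 at 6 h, with a log2 fold change of −0.53 (SE 0.13, adjusted P = 7.16e-04). ZNF714 and ZNF101 were called lower in every alternative run.

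The other 5 falls were small. ZNF586 (−0.47, adjusted P = 0.0060) went from 168 and 181 normalized counts at 6 h to 137 and 116 at 24 h, and it overlaps ZNF587B, which rose by 0.61 on the log2 scale, and ZNF552, at −0.033. ZNF675 (−0.41, adjusted P = 0.0039), known as an inhibitor of TRAF6 signaling, went from 268 and 306 to 206 and 227. ZNF441 (−0.38, adjusted P = 0.011) went from 266 and 248 to 217 and 178. ZNF486 (−0.32, adjusted P = 0.045) and ZNF430 (−0.28, adjusted P = 0.028) had 203 and 176, and 311 and 304, at 6 h, and 146 and 157, and 264 and 241, at 24 h. DESeq2 called neither ZNF586, ZNF441, ZNF486 nor ZNF430, with adjusted P values from 0.053 to 0.17. Single libraries also decided calls. Without 24 h replicate 2, ZNF586 was at −0.34 (adjusted P = 0.085), ZNF441 at −0.23 (0.17), ZNF486 at −0.36 (0.067) and ZNF430 at −0.21 (0.17). Without 6 h replicate 1, ZNF441 was at −0.33 (0.082), ZNF486 at −0.21 (0.29) and ZNF430 at −0.27 (0.10). Without 6 h replicate 2, ZNF586 was at −0.41 (0.062), ZNF430 at −0.30 (0.075) and ZNF675 at −0.31 (0.085), and without 24 h replicate 1 ZNF486 was at −0.27 (0.17).

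The remaining 2 of the 9 falls are outside the rule for naming genes because of their low counts, and were chosen after their values were seen. ZNF724P had 19.9 and 9.73 normalized counts at 24 h and 28.1 and 36.5 at 6 h (log2 fold change −1.13, SE 0.35, adjusted P = 0.0062). ZNF682 had 29.9 and 29.2 at 24 h and 52.9 and 48.0 at 6 h (−0.77, SE 0.25, adjusted P = 0.0092). DESeq2 called neither gene. ZNF724P was also not called without 24 h replicate 2 or without 6 h replicate 2, and ZNF682 was not called without 6 h replicate 1.

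The changes were then followed along the chromosome. Ordered by start in hg19 and split wherever neighbouring starts were over 1 Mb apart, the 251 genes formed 16 positional groups, 9 of them with 5 or more genes. In 8 of those 9 the median log2 fold change was above 0. The exception, group 5 in this order, was chosen for description after its values were seen and is therefore given without a test.

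Group 5 spans chr19:19779605-24312654 (hg19), from ZNF101 to ZNF254 beside the centromere, and holds the ZNF91 family, known for its expansion in primates. It has 36 genes, of which 16 were tested, with a median log2 fold change of −0.17. Of the 16, 7 were lower at 24 h (43.8%) and 1 was higher (6.25%), beside 32.6% and 33.0% of all genes tested. The 7 were ZNF714, ZNF724P, ZNF682, ZNF101, ZNF675, ZNF486 and ZNF430. The single rise was ZNF708, with 192 and 191 normalized counts at 24 h and 139 and 162 at 6 h (0.34, adjusted P = 0.030), which was called neither by DESeq2 nor when any library but 6 h replicate 2 was left out. Outside this group 147 genes were tested, of which 67 were higher (45.6%) and 2 lower (1.36%), with a median of 0.29.

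Within group 5 the changes were spread widely, with an SD of 0.59 over the 16 genes against 0.34 outside it. The most abundant, ZNF90, had 602 and 695 normalized counts at 24 h and 677 and 797 at 6 h (−0.19, adjusted P = 0.084). It was called lower without 24 h replicate 2 (−0.29, adjusted P = 0.028) and without 6 h replicate 1 (−0.30, adjusted P = 0.024), but was at −0.085 (adjusted P = 0.52) without 24 h replicate 1 and −0.062 (adjusted P = 0.66) without 6 h replicate 2. ZNF254 was close to level, with 487 and 494 at 24 h and 450 and 441 at 6 h (0.14, adjusted P = 0.19). Of the 36 genes, 11 had no count in any library. With DESeq2, 3 of the 7 falls were called (ZNF101, ZNF675 and ZNF714), a smaller share of the 16 genes than the 28.0% lower among all genes.

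Composition moved with position. The transcripts of the 16 tested genes of group 5 had a median GC content of 37.0%, against 43.2% for the tested genes outside it and 48.1% for all genes tested. Over all 12566 tested genes with a transcript model, the log2 fold change rose with GC content (Spearman's rho across genes 0.234), and over the 163 ZNF genes rho was 0.151. After removal of a fitted trend on GC content and length of the transcript, the median was 0.033 in group 5, 0.31 outside it, 0.31 for the 163 genes and −0.021 for all genes. The group 5 median thus changed sign, to a value small beside the SD of 0.59 over its 16 genes before the removal. Of the 163 genes, 127 had a value above 0 after the removal, against 131 before. Among the tested transcripts of group 5 the share of 50-base windows found in other genes had a median of 5.08% and a maximum of 8.10%. In the other groups of 5 or more genes the medians ran from 0 to 1.81% and the maxima from 3.33% to 36.1%. The part of GC content and of shared sequence in the changes of single genes, of group 5 or of the 163 genes was not tested.

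**Figure D3:**
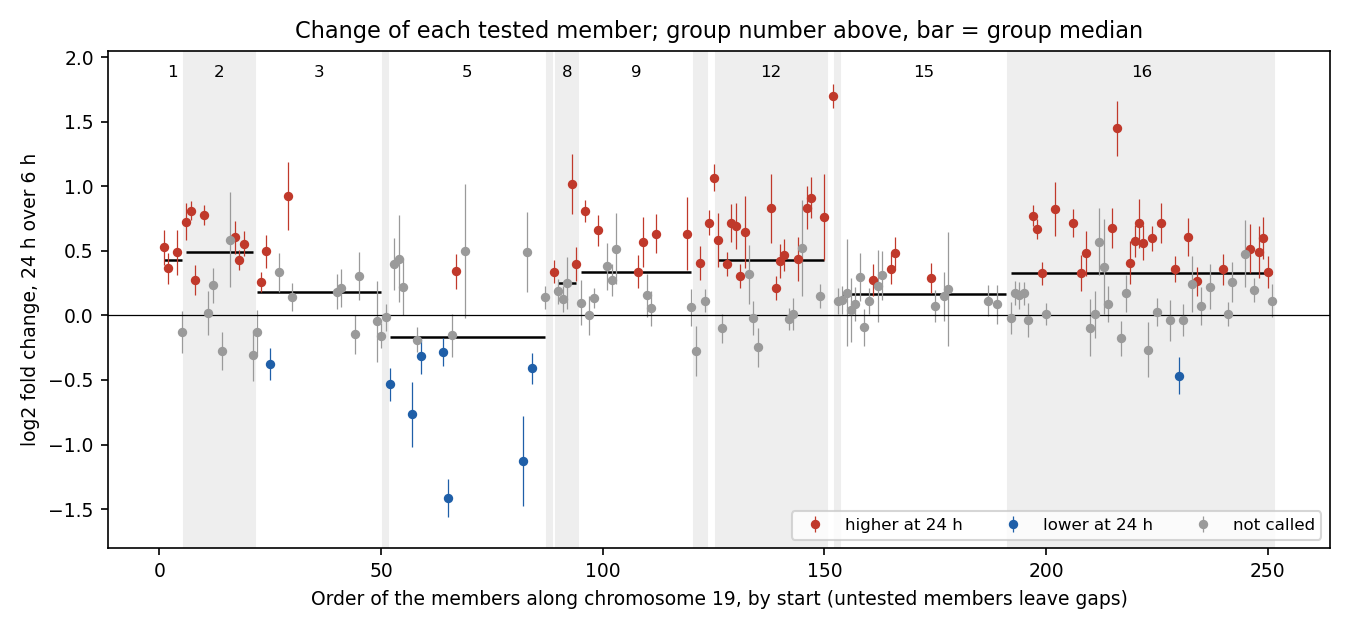
Log2 fold change of 24 h over 6 h (vertical axis, bars are standard errors) of the 163 tested genes in their order along chromosome 19 (horizontal axis), colored by whether they were called. Shading separates the 16 positional groups, those of 5 or more genes are numbered, and black lines are group medians. The line of group 5 is at −0.17 and the lines of the other numbered groups are between 0.16 and 0.49.

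Promoters of group 5 are shown beside those of genes outside it because many of them are alike. Sequences from 250 bases before to 50 bases after the start came from RefSeq (GRCh38.p14), which had an entry for 212 of the 246 symbols. Each is given below for the 120 bases before the start, 5′ to 3′ on the gene's strand. Capitals mark CCAAT, the box bound by the factor NF-Y, and CCGGAAG, a core bound by ETS family factors, each on either strand (ATTGG and CTTCCGG).
ZNF714, chr19:21082083-21082202, plus strand: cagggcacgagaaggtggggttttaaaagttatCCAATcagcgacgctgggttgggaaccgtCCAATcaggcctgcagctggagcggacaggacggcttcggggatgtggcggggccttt
ZNF431, chr19:21141920-21142039, plus strand: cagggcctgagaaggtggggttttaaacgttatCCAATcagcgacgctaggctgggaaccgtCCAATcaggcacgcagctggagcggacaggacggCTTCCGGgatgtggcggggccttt
ZNF430, chr19:21020537-21020656, plus strand: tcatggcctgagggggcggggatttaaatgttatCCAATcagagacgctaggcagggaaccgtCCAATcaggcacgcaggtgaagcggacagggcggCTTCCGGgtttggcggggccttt
ZNF486, chr19:20167094-20167213, plus strand: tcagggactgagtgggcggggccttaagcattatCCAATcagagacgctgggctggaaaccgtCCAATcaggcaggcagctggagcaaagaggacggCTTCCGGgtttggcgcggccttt
ZNF91, chr19:23395472-23395591, minus strand: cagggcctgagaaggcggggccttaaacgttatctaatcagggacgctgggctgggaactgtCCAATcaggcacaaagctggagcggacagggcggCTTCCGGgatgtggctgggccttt
ZNF526, chr19:42220192-42220311, plus strand: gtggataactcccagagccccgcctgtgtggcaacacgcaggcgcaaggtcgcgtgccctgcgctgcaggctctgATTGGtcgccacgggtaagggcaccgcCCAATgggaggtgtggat
ZNF749, chr19:57435205-57435324, plus strand: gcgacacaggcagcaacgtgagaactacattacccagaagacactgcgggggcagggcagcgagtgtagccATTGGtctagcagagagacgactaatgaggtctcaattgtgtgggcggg
The first 5 lie in group 5 and, ZNF714 aside, are 82.4% to 92.0% identical to it over the 250 bases before the start. Of these, ZNF714 fell most, ZNF430 and ZNF486 fell, and ZNF431 and ZNF91 were not called. The last 2, from genes with large rises outside the group, hold CCAAT at other places.

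Over the 250 bases before the start, the promoters of the other 26 genes of group 5 were 48.8% to 92.0% identical to that of ZNF714 in a gapped global alignment, with a median of 80.2%. The promoters of the 185 genes outside the group were 43.5% to 62.4% identical to it, with a median of 50.0%. Several called genes of group 5 were in or near that range, with ZNF101 at 52.9%, ZNF708 at 54.3%, ZNF675 at 61.7% and ZNF682 at 63.5%. The closest, ZNF431 at 92.0%, had a log2 fold change of −0.15 (adjusted P = 0.43), far from the −1.41 of ZNF714 beside it. The ZNF431 value ran from −0.43 to 0.087 when single libraries were left out. ZNF714 was taken as the reference after its values were seen.

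In the full window of 300 bases, CCAAT on either strand was found in 27 of the 27 promoters of group 5, in 47.0% of the 185 outside it, and in 35.7% of all 27305 RefSeq promoters. A total of 2 or more copies were found in 19 of the 27 (70.4%), in 13.0% outside the group and in 11.3% of all promoters. CCGGAAG was found in 70.4% of the group, 41.1% of the others and 10.6% of all promoters, while GGGCGG, the GC box bound by SP family factors, was found in 74.1%, 65.9% and 44.5%. Among tested genes alone, CCAAT was in 13 of 13 promoters of group 5, 48.9% of the other ZNF genes and 36.7% of all genes tested. For CCGGAAG these shares were 61.5%, 42.1% and 18.7%, and for GGGCGG 53.8%, 61.7% and 69.3%, so the order for GGGCGG turned round. Both strands were searched for each motif, and matches of different motifs could overlap.

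By call, CCAAT was in 29 of the 64 promoters of genes called higher (45.3%) and in 8 of the 8 of genes called lower. CCGGAAG was in 35.9% and 50.0%, and GGGCGG in 59.4% and 6 of 8, beside 18.7% and 69.3% of all genes tested. Of the genes called lower, 6 with an entry lie in group 5, where all promoters hold CCAAT whatever the call, so call and position cannot be told apart here. A match of letters is a description of the sequence and not a binding site.

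The other positional groups of 5 or more genes all had medians above 0. Their counts stand beside the 33.0% called higher and 32.6% called lower over all genes tested. In group 12 (chr19:44029649-45579846, hg19) 14 of 22 tested genes were higher and the other 8 were not called, with a median of 0.43. They included ZNF285, ZNF112 and ZNF224, a repressor of the aldolase A gene (0.21, adjusted P = 0.046). ZNF224 was not called with DESeq2 (0.21, adjusted P = 0.16), with library size alone (0.17, adjusted P = 0.12), or without 24 h replicate 1 (0.14, adjusted P = 0.28), 6 h replicate 1 (0.23, adjusted P = 0.099) or 6 h replicate 2 (0.20, adjusted P = 0.16). The most abundant gene of group 12, ZNF45, had 804 and 693 normalized counts at 24 h and 639 and 574 at 6 h (0.30, adjusted P = 0.0052, but 0.20 with adjusted P = 0.11 without 24 h replicate 1, and 0.23 with adjusted P = 0.094 without 6 h replicate 2). In group 2 (chr19:7069455-9903856) 7 of 12 tested genes were higher and the other 5 were not called, with a median of 0.49 and ZNF358 as the most abundant.

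In group 16 (chr19:55987699-58992597), the largest, 23 of 49 tested genes were higher (46.9%) and ZNF586 alone was lower, with a median of 0.33. Over all genes tested 33.0% were higher and 32.6% lower. In group 9 (chr19:36673188-38307940) 6 of 15 tested genes were higher (40%), all 15 values were above 0, and the median was 0.34. Group 1 (chr19:2819872-2944969) had 3 of 4 tested genes higher with a median of 0.43, among them ZNF555 (0.37, adjusted P = 0.0092). ZNF555 was not called with DESeq2 (0.36, adjusted P = 0.064) or without 6 h replicate 1 (0.25, adjusted P = 0.14). Group 8 (chr19:35168544-35454953) had 2 of 5 higher (40%) with a median of 0.25, and its most abundant gene, ZNF302, was at 0.19 (adjusted P = 0.11). Its value was 0.33 (adjusted P = 0.013) without 24 h replicate 2 and 0.042 (adjusted P = 0.77) without 24 h replicate 1.

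Of the groups of 5 or more genes, the smallest medians above 0 were in groups 3 and 15. Their shares called higher, 23.1% and 22.2%, were below the 33.0% of all genes tested. In group 3 (chr19:11594242-12750912) 3 of 13 tested genes were higher, among them ZNF627, and ZNF441 was lower, with a median of 0.18. In group 15 (chr19:52074551-54083523) 4 of 18 were higher and the other 14 were not called, with a median of 0.16 and an SD of 0.14. Its most abundant gene, ZNF766, had 741 and 549 normalized counts at 24 h and 547 and 460 at 6 h (0.36, adjusted P = 0.0068). That value was 0.13 (adjusted P = 0.34) without 24 h replicate 1 and 0.24 (adjusted P = 0.16) without 6 h replicate 2.

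Neighbours were only loosely alike in their changes. Over the 116 pairs of tested genes that follow each other in one group, Pearson's r between their log2 fold changes was 0.162, 88 pairs had the same sign, and the median absolute difference was 0.29. These pairs share genes and libraries, so r is a description. With 131 of the 163 tested genes above 0, many pairs would share a sign in any order. The pair that differed most was ZNF749 (1.45) and ZNF772 (−0.18, adjusted P = 0.26), whose starts are 31334 bases apart. The next were ZNF714 (−1.41) with ZNF431 (−0.15) on one side and with ZNF430 (−0.28) on the other.

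Features shared between genes were examined as descriptions. The 129 tested genes with at most 5% of 50-base windows shared had 58 higher (45.0%) and 6 lower (4.65%), with a median of 0.28. The 34 with more had 10 higher (29.4%) and 3 lower (8.82%), with a median of 0.23. The 67 that overlap another gene of the table had 29 higher (43.3%) and 1 lower (1.49%), with a median of 0.26. The 96 that overlap none had 39 higher (40.6%) and 8 lower (8.33%), with a median of 0.28. Over all genes tested the shares were 33.0% higher and 32.6% lower. Across the 163 genes, Spearman's rho of the log2 fold change was 0.0058 with transcript length and −0.073 with mean count.

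Of 10 genes with a role known from background, 5 were tested, 1 was higher and 1 lower. ZNF91, which silences SVA retrotransposons, had 34.9 and 25.3 normalized counts at 24 h and 22.7 and 20.1 at 6 h (0.49, SE 0.31, adjusted P = 0.17). ZNF274, which brings SETDB1 to ZNF genes themselves, had 497 and 460 at 24 h and 464 and 484 at 6 h (0.012, SE 0.094, adjusted P = 0.91), so its times overlapped. ZNF350, a partner of BRCA1, was at 0.30 (SE 0.18, adjusted P = 0.15). The pair that passed was ZNF224, higher, and ZNF675, lower, as given above. ZNF382 had 9 and 8 counts at 24 h and 3 and 4 at 6 h, and ZNF568 and ZNF808 had at most 2 counts in a library, so none of them was tested.

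Genes listed by hand as corepressor or related chromatin factors of KRAB zinc finger proteins did not move in one direction. Of 27 listed genes, 26 were found and tested, of which 6 were higher (23.1%), 8 lower (30.8%) and 12 not called, beside the 33.0% and 32.6% of all genes, with a median log2 fold change of −0.068. UHRF1 was not analysed here. Only 1 higher and 4 lower also passed the cutoffs of the methods, where all genes gave 17.4% and 17.7%.

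TRIM28, the KRAB-binding hub of the complex, had 6254 and 6612 normalized counts at 24 h and 5114 and 5083 at 6 h (0.34, SE 0.071, adjusted P = 1.95e-04). SETDB1, which trimethylates histone H3 on lysine 9, had 1436 and 1465 at 24 h and 1163 and 1071 at 6 h (0.38, SE 0.074, adjusted P = 6.92e-05). The largest rise was that of MORC2, an ATPase that compacts chromatin with the HUSH complex, from 583 and 578 to 974 and 1045 (0.80, SE 0.083, adjusted P = 3.48e-09). SMARCAD1 (0.30), EHMT1 (0.25) and DAXX (0.27) were also higher.

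The largest fall was that of SUV39H1, another histone H3 lysine 9 methyltransferase, from 354 and 359 normalized counts at 6 h to 102 and 84.7 at 24 h (−1.94, SE 0.13, adjusted P = 8.90e-13). DNMT1, the maintenance DNA methyltransferase, went from 1831 and 1772 to 930 and 1063 (−0.85, SE 0.076, adjusted P = 1.87e-10). KIAA1551, also called RESF1 and known to bind SETDB1, went from 2780 and 2350 to 1795 and 1617 (−0.59, SE 0.080, adjusted P = 4.16e-07). The heterochromatin protein genes CBX3 (−0.55) and CBX5 (−0.46) also fell, while CBX1 did not pass (−0.16, adjusted P = 0.059). SUV39H2 (−0.39) and EHMT2 (−0.21) were also lower.

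**Figure D4:**
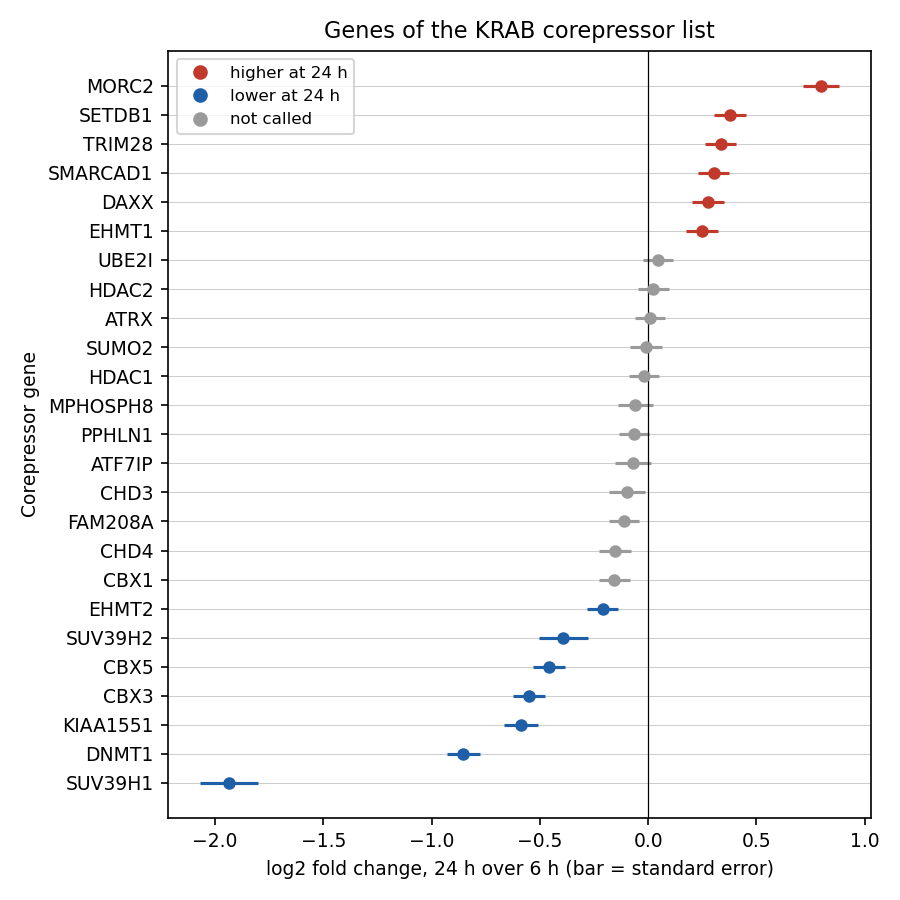
Log2 fold change of 24 h over 6 h (horizontal axis, bars are standard errors) of 25 tested genes of the KRAB corepressor list, ordered by value. The 6 called higher are between 0.25 and 0.80 and the 7 called lower that are drawn between −1.94 and −0.21.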

How the data were processed

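RNA from TPC1 cells was sequenced in 4 libraries, 2 at 6 h and 2 at 24 h. Per the labels, 50-base single-end reads were aligned with STAR 2.3 to hg19, whereas the methods of the study give another read layout and aligner version. The authors deposited raw counts per gene, a normalized signal (counts divided by DESeq2 size factors) and their own DESeq2 comparison as a log2 fold change with its error, a Wald score and P values. Only the deposited raw counts were used here; the authors' signal, log2, score and p-value columns were deposited beside them and were left out. Unmapped sample columns numbered 0.

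Groups follow the labels. Counts were tested across the whole table with edgeR 4.0.16 in R 4.3.3 (filterByExpr, TMM, quasi-likelihood test, time as the single factor), with Benjamini-Hochberg adjustment over 12876 genes, which hold 99.97% of counts. Normalized counts are raw counts scaled by each library's effective (TMM) size, set to a mean of 1 over the libraries. The biological coefficient of variation was 0.0521. On simulated counts with 200 genes changed 2-fold among 12876, the procedure recovered 99.5% of them, and 4.33% of its calls were unchanged genes. The changed genes were drawn from those with a mean of at least 50 normalized counts, and all genes were given the same dispersion. Smaller changes, changes in genes with lower counts and a larger share of changed genes were not simulated.

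The genes and lists were chosen with earlier results of these data known. Named genes were the 10 largest rises and up to 10 largest falls with an adjusted P under 0.05, a mean of at least 50 normalized counts and no overlap between times; the 5 with the highest counts; 10 with a known role; the 3 neighbouring pairs (both means at least 50) that differed most; the most abundant gene of each positional group of 5 or more; and TRIM28, SETDB1 and the 3 largest rises and falls of the corepressor list. Gene positions are those of the table. Transcript lengths, GC content and shared 50-base windows came from GENCODE v44 and promoters from RefSeq (GRCh38.p14, the window of the 5′-most start), matched by identifier or symbol; no positions were converted between builds. Grouping by protein domains was not run, and single values of 2 listed genes are not reported here. Alternatives were DESeq2 1.42.0, library size alone, upper quartile scaling, other filters, a replicate block, the cutoffs of the methods, each library left out in turn, and, chosen after seeing the data, removal of a GC and length trend and a limit on shared windows.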

Additional observations from a re-analysis of the deposited data

How the results depend on the processing

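Of the 163 tested genes, 68 were higher and 9 lower. Library size alone gave 56 and 10, and upper quartile scaling 71 and 7. No filter on low counts gave 66 and 9 of 211, and at least 10 counts in every library 67 and 9 of 161. Over all genes these runs called 30.1%, 34.7%, 26.2% and 33.2% higher, and 35.3%, 30.2%, 25.7% and 32.3% lower. DESeq2 gave 42 and 3 of the 163, with the share higher below the 27.8% of all genes. The cutoffs of the methods gave 34 and 4, where all genes gave 17.4% and 17.7%. Genes with at most 5% of shared windows, a limit chosen after seeing the data, gave 58 and 6 of 129. Leaving out each library in turn assumes that the lone library of a time varies like the others. The share higher then exceeded that of all genes only without 24 h replicate 2. The share lower was below that of all genes in every such run. The median log2 fold change of the 163 genes stayed between 0.23 and 0.33 under each alternative run for it. The median of all genes tested was −0.040 with library size alone and 0.033 with upper quartile scaling.

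In positional group 5, with 7 lower and 1 higher of 16 tested, DESeq2 gave 3 lower and 0 higher, and library size alone 8 lower and 0 higher. Over all genes DESeq2 called 28.0% lower and 27.8% higher, and library size alone 35.3% lower and 30.1% higher. In each run with a library left out, some of the 7 falls were no longer called. Of the corepressor genes, 6 higher and 8 lower became 1 and 4 under the cutoffs of the methods, beside 17.4% and 17.7% of all genes. ZNF274 reversed to −0.030 with library size alone, −0.041 without 24 h replicate 1 and −0.018 without 6 h replicate 1, and ZNF431 to 0.087 without 24 h replicate 2, all 4 far from the threshold. With each library left out, ZNF274 ran from −0.041 to 0.073 and ZNF431 from −0.43 to 0.087. The cause of these shifts was not tested, beyond the fewer samples or genes that an alternative itself uses.

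The replicate numbers do not pair the libraries by any label, and deviations of same-numbered libraries correlated at 0.0757. With the replicate block 73 were higher and 10 lower, all earlier calls included, and ZNF90 passed (−0.18, adjusted P = 0.029). Over all genes this run called 35.1% higher and 34.5% lower. Among named genes, DESeq2 ended 6 calls (ZNF224, ZNF430, ZNF441, ZNF486, ZNF555 and ZNF586). A median standard error of 0.138 limits what single ZNF genes can show, and 88 genes were too low to test.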
